A study of Mus musculus with 6 samples.

Results

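Immune cells read antibodies and tissue debris through a small set of receptors, most of which lack a signaling tail of their own and borrow one from an adaptor. The 10 genes described here were chosen by symbol to cover that system in macrophages, with earlier results of these data known. They are the IgG receptors *Fcgr1*, *Fcgr2b*, *Fcgr3* and *Fcgr4*, the neonatal Fc receptor *Fcgrt*, the adaptors *Fcer1g* and *Tyrobp*, the kinase *Syk*, and the receptors *Trem1* and *Trem2*. All 10 were found among the 24786 gene symbols measured, and all 10 passed the filter on low values.

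The activating IgG receptors FcγRI (*Fcgr1*), FcγRIII (*Fcgr3*) and FcγRIV (*Fcgr4*) signal through the Fc receptor gamma chain (*Fcer1g*), whose tail carries an immunoreceptor tyrosine-based activation motif (ITAM). Trem1 and Trem2, which belong to a family of myeloid receptors, signal through the ITAM adaptor DAP12 (*Tyrobp*). When the tyrosines of an ITAM are phosphorylated by Src-family kinases, the kinase Syk docks on them and passes the signal on to phagocytosis and cytokine genes. FcγRIIB (*Fcgr2b*) instead carries an inhibitory motif (ITIM) in its own tail and recruits the phosphatase SHIP1 (*Inpp5d*), which dampens signals of the activating receptors.

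RNA of Raw264.7 cells, a mouse macrophage line obtained from a tumor induced by Abelson murine leukemia virus, was sequenced in 3 libraries with a control shRNA (sh-NC, genotype control) and in 3 libraries with an shRNA against the ETS-family transcription factor Etv5 (sh-*Etv5*, genotype *Etv5* knockdown). The comparison asked which transcripts of the macrophage differ when *Etv5* is reduced. Both groups were labelled as strain C57BL/6 and post natal day 21, and both received lentivirus together with a Lipofectamine transfection reagent. The labels give 24 or 48 h after infection without saying which, whereas the study's methods describe stable cells kept in puromycin. Which of 3 shRNAs was used for these libraries is not stated in the sources used here, and the same holds for whether cells were infected separately for each library. The p-values below therefore measure the spread between these libraries, which may be technical. The libraries are of a single transformed line, and in bulk RNA fewer cells with a transcript and less transcript per cell cannot be told apart.

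The values are RPKM, reads scaled to the length of the gene and to the mapped reads of the library, so levels of different genes can be compared per length. *Etv5* itself measured 9.18, 9.89 and 9.39 RPKM with sh-NC and 5.19, 4.91 and 5.28 RPKM with sh-*Etv5*, a fall of 46.0% on average (limma, log2 fold change −0.78 ± 0.0565 SE, adjusted p = 2.74e-07). RPKM summed to between 320462 and 322949 in sh-NC and between 330454 and 340257 in sh-*Etv5*. The number of reads behind a value is unknown. Of 10 macrophage markers, 9 reached 1 RPKM and *Mrc1* did not. Of these 9, 4 were higher, 4 lower and 1 not called. The summed level of the 10 was 4561 to 4685 RPKM in sh-NC and 3631 to 3747 RPKM in sh-*Etv5*. Most of that sum was *Lyz2*, whose mean fell from 2834 to 2041 RPKM. The largest log2 fold changes among the markers were rises, in *Itgam* (33.8 to 127 RPKM) and *Adgre1* (2.60 to 11.3 RPKM). Among the markers of B, T or NK cells, neutrophils, mast cells or basophils, dendritic cells and fibroblasts, only *Hdc* reached 1 RPKM in any library, with a highest value of 1.66 RPKM. The summed mast cell or basophil list went from 0.718 to 0.974 RPKM in sh-NC to 1.55 to 1.76 RPKM in sh-*Etv5*, the fibroblast list from at most 0.0238 to at most 1.10 RPKM, the dendritic cell list from at most 1.03 to at most 0.420 RPKM, and the B cell list from 0.0367 to 0.199 RPKM in sh-NC to 0.256 to 0.733 RPKM in sh-*Etv5*. The T or NK cell and neutrophil lists summed to at most 0.181 RPKM in any library. *Pax5*, *Ncr1*, *Nkg7*, *Ly6g*, *Elane*, *Retnlg*, *Ms4a2*, *Mcpt8* and *Col1a2* were at 0 in all 6 libraries. The part of these differences in the results that follow was not tested.

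Of the 10 genes, 6 were higher in sh-*Etv5* (*Fcgr2b*, *Fcgr4*, *Fcgrt*, *Fcer1g*, *Syk* and *Trem1*), 3 were lower (*Fcgr1*, *Tyrobp* and *Trem2*), and *Fcgr3* was not called at an adjusted p under 0.05 (limma). Calls were common in this comparison. Of the 10738 genes tested, 74.3% were called in either direction, 33.3% as higher and 41% as lower, so 9 called genes of 10 is a share near the background. An absolute log2 fold change above 0.5 together with the call was reached by 8 of the 10, against 30.9% of all genes tested, and one above 1 by 3 of the 10 (*Fcgr2b*, *Fcgr4* and *Trem2*), against 9.23%. These shares are not a test of the set, because its genes were chosen with earlier results of these data known. The median log2 fold change of the 10 was 0.57, with −0.05 over all genes tested, and the median absolute value was 0.78, with 0.31 over all genes tested. The 3 libraries of one group did not overlap those of the other for 9 of the 10 genes, which held for 76.4% of all genes tested. *Fcgr4* entered the tested genes only through its sh-*Etv5* libraries, so its presence in these counts depends on its rise, and without it the median of the other 9 was 0.48.

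**Figure D1:**
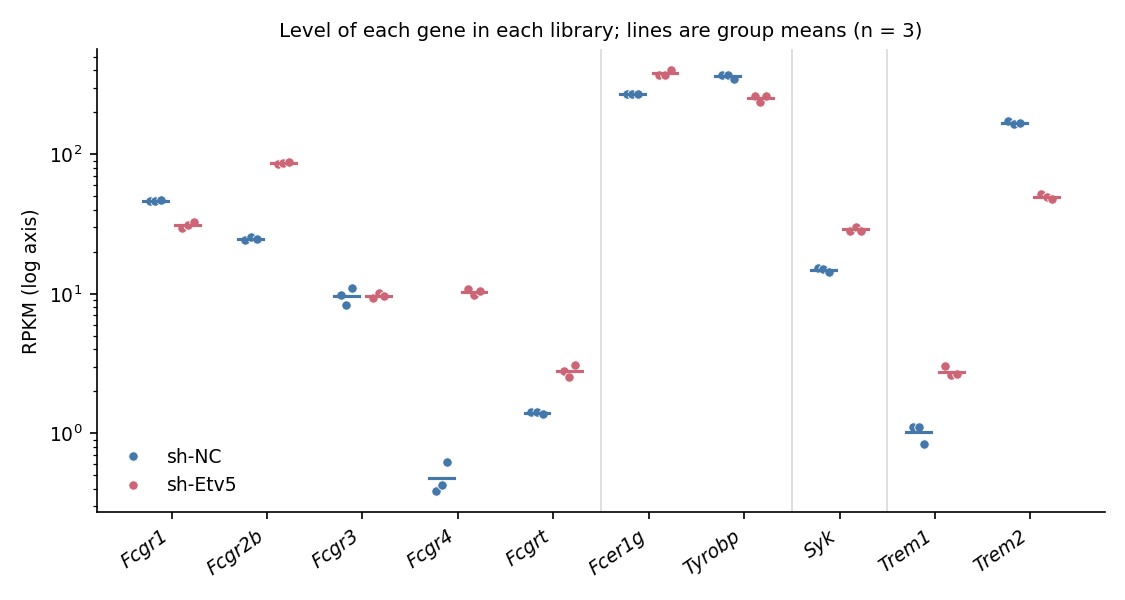
RPKM on a log axis for each of the 10 genes in each library, with lines at the group means (n = 3 sh-NC and 3 sh-Etv5 libraries). The levels range from 0.479 RPKM for Fcgr4 to 361 RPKM for Tyrobp in sh-NC, and Fcgr3 is the gene whose groups overlap.

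The order of the levels differed between the groups. In sh-NC it ran from *Tyrobp*, *Fcer1g* and *Trem2* through *Fcgr1*, *Fcgr2b*, *Syk* and *Fcgr3* to *Fcgrt*, *Trem1* and *Fcgr4*, and no neighbors in that order overlapped across their 3 libraries. In sh-*Etv5* it ran *Fcer1g*, *Tyrobp*, *Fcgr2b*, *Trem2*, *Fcgr1*, *Syk*, *Fcgr4*, *Fcgr3*, *Fcgrt* and *Trem1*. There *Fcgr1* overlapped *Syk*, *Fcgr4* overlapped *Fcgr3*, and *Fcgrt* overlapped *Trem1*. Among all 24786 symbols ranked by mean RPKM, *Fcgr2b* went from rank 2702 to 630, *Fcgr4* from 11177 to 5453 and *Trem2* from 266 to 1228.

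*Fcgr2b*, the inhibitory IgG receptor, lies on the minus strand at chr1:170958617-170976547 (GRCm38) and has 8 exons in its principal transcript. The inhibitory motif that sets this receptor apart is in its coding sequence. A search of the principal coding sequences for an ITIM, read as an isoleucine, leucine, valine or serine codon, any codon, a tyrosine codon, 2 further codons and an isoleucine, leucine or valine codon, found it at codons 317 to 322 of 340, in 1 exon at chr1:170961071-170961088. The capitals mark the codons that the pattern fixes.
Fcgr2b ITIM: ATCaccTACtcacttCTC
The pattern is short and also matched 3 times in *Fcgr1* and once each in *Fcgr4*, *Fcgrt*, *Fcer1g* and *Tyrobp*, so a match alone names no function. It had no match in *Fcgr3*, *Syk*, *Trem1* or *Trem2*.

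*Fcgr2b* measured 24.4, 25.5 and 24.5 RPKM in sh-NC and 85.8, 86.2 and 88.6 RPKM in sh-*Etv5*. Every sh-*Etv5* library lay far above every sh-NC library, and the libraries within a group were close to each other. The mean rose 3.50-fold, from 24.8 ± 0.602 to 86.9 ± 1.49 RPKM (SD, n = 3 per group), with a log2 fold change of 1.77 ± 0.0360 SE (95% confidence interval 1.69 to 1.85, limma, adjusted p = 9.98e-12). Ranked by the rise in log2 value, *Fcgr2b* was 224th of the 10738 genes tested. Exons of *Fcgr2b* overlap those of *Gm38204* on the opposite strand, and it is not stated whether reads were assigned by strand.

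*Fcgr4*, which encodes an activating receptor for IgG2 subclasses, lies between *Fcgr2b* and *Fcgr3* at chr1:171018920-171029761 on the plus strand, with 5 exons in its principal transcript. It measured 0.385, 0.424 and 0.626 RPKM in sh-NC and 10.8, 9.80 and 10.4 RPKM in sh-*Etv5*. It was thus below 1 RPKM in every control library and near 10 RPKM in every knockdown library. The ratio of the means, 0.479 ± 0.129 against 10.3 ± 0.511 RPKM (SD, n = 3 per group), was 21.6-fold. The log2 fold change was 2.94 ± 0.0798 SE on the log2(RPKM + 1) scale, which understates the change of a gene this low (limma, adjusted p = 1.06e-10), and it was 4.44 with a pseudocount of 0.01.

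*Fcgr1* encodes the high-affinity IgG receptor and lies at chr3:96282909-96293969 on the minus strand, apart from the other IgG receptors, with 6 exons. It measured 46.5, 45.9 and 46.9 RPKM in sh-NC and 29.7, 31.3 and 32.9 RPKM in sh-*Etv5*. All 3 sh-*Etv5* libraries were below all 3 controls. From 46.5 ± 0.526 RPKM the mean fell by 32.7% to 31.3 ± 1.59 RPKM (SD, n = 3 per group), with a log2 fold change of −0.56 ± 0.0427 SE (limma, adjusted p = 4.16e-07).

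*Fcgr3*, the low-affinity activating IgG receptor, lies at chr1:171051174-171064935 on the minus strand, with 5 exons. It measured 9.87, 8.27 and 10.9 RPKM in sh-NC and 9.25, 10.2 and 9.62 RPKM in sh-*Etv5*. The groups overlapped, and the lowest and the highest value were both in sh-NC. The means were 9.69 ± 1.34 and 9.68 ± 0.454 RPKM (SD, n = 3 per group), and the log2 fold change of 0.01 ± 0.0830 SE did not pass the test (limma, 95% confidence interval −0.18 to 0.19, adjusted p = 0.956).

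*Fcgr3* and *Fcgr2b* share coding sequence, which matters for reading a pair of genes that behaved so differently. Their coding sequences hold an identical run of 129 bases, whereas the other pairs of IgG receptors share runs of at most 14 bases. The run with 15 bases on either side is shown for both genes, at coding bases 263 to 421 of *Fcgr2b* (chr1:170966659-170968096, minus strand, 2 exons) and 248 to 406 of *Fcgr3* (chr1:171054152-171057807, minus strand, 2 exons). Capitals mark the 2 bases that differ between them.
Fcgr2b: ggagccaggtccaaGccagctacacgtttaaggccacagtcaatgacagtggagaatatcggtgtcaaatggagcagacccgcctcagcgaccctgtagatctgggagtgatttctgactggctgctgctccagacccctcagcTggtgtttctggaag
Fcgr3: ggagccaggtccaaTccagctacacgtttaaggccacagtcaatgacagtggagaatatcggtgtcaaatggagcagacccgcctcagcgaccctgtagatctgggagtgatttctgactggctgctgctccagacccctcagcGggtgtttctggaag
Of the 50-base stretches in annotated transcripts, 166 of 1733 (9.58%) in *Fcgr3* also occur in *Fcgr2b*, and 395 of 5685 (6.95%) in *Fcgr2b* occur in another gene. The other 8 genes have no 50-base stretch in common with any other gene. How reads from shared stretches were assigned is not given in the sources used here, so the level of *Fcgr3* in particular is less certain, and the part of shared reads in it was not tested.

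The balance of the IgG receptors within a library was compared through ratios of RPKM, which do not depend on the scaling of a library. The ratio of *Fcgr1* to *Fcgr2b* was 1.90, 1.80 and 1.92 in sh-NC and 0.346, 0.362 and 0.371 in sh-*Etv5*. The high-affinity receptor thus exceeded the inhibitory receptor in every control library and was below it in every knockdown library. On the log2 scale the difference was −2.38 (exact permutation test, two-sided, p = 0.1, the smallest value that 3 against 3 libraries allow, so no ratio could reach 0.05). The ratio of *Fcgr3* to *Fcgr2b* went from 0.391 ± 0.0618 to 0.111 ± 0.00549 (log2 difference −1.80), whereas that of *Fcgr4* to *Fcgr2b* went from 0.0193 ± 0.00542 to 0.119 ± 0.00639 (log2 difference 2.66, both SD, n = 3 per group). With 1 RPKM added to each value the latter difference was 1.18. None of these groups overlapped, and both exact permutation p were again 0.1. In all, 5 ratios were compared, all with the same p, which was not adjusted over the 5.

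Summed over the 4 IgG receptors, transcript levels were 81.4 ± 1.46 RPKM in sh-NC and 138 ± 3.02 RPKM in sh-*Etv5* (SD, n = 3 per group). *Fcgr2b* made up 30.5 ± 1.21% of this sum in sh-NC and 62.9 ± 0.360% in sh-*Etv5*, and *Fcgr1* made up 57.1 ± 0.427% and 22.6 ± 0.672%. The leading IgG receptor transcript was therefore *Fcgr1* in each control library and *Fcgr2b* in each knockdown library. The sum of the 3 activating receptors was 54.6 to 58.5 RPKM in sh-NC and 49.8 to 52.9 RPKM in sh-*Etv5*, so the groups did not overlap but lay close to each other. The sum of the activating receptors divided by *Fcgr2b* was 2.28 ± 0.128 in sh-NC and 0.590 ± 0.00907 in sh-*Etv5*. These sums are given as values, with no test.

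**Figure D2:**
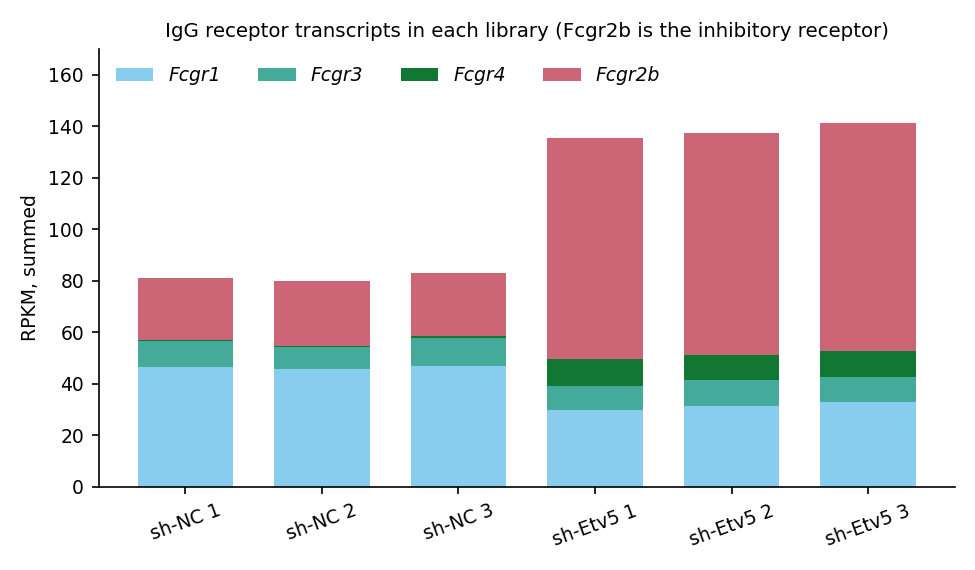
Stacked bars from 0 of the RPKM of Fcgr1, Fcgr2b, Fcgr3 and Fcgr4 in each of the 6 libraries. The total is 80.1 to 83.0 RPKM in sh-NC and 136 to 141 RPKM in sh-Etv5, and Fcgr2b is the largest segment in every sh-Etv5 library.

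*Fcgrt* encodes the neonatal Fc receptor, which binds IgG in acidic endosomes and returns it to the surface, and it does not signal through an ITAM. The gene lies at chr7:45092990-45103851 on the minus strand, with 7 exons. It measured 1.42, 1.42 and 1.38 RPKM in sh-NC and 2.80, 2.55 and 3.10 RPKM in sh-*Etv5*. The level was low throughout, and all sh-*Etv5* libraries exceeded all sh-NC libraries. The mean rose 2.0-fold, with a log2 fold change of 0.66 ± 0.0780 SE (limma, adjusted p = 1.51e-05).

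The adaptors were the most abundant of the 10 transcripts. *Fcer1g* lies at chr1:171229572-171234365 on the minus strand, 165 kb beyond *Fcgr3*, and *Tyrobp* at chr7:30413760-30417585 on the plus strand, each with 5 exons. A search for an ITAM, read as a tyrosine codon, 2 codons, a leucine or isoleucine codon, a spacer, and the same 4 codons again, found 1 match in each adaptor and none in the other 8 genes. In *Fcer1g* it covers codons 65 to 79 of 86 (chr1:171229889-171230072, minus strand, 2 exons), and in *Tyrobp* codons 92 to 106 of 114 (chr7:30415670-30417382, plus strand, 2 exons). The motifs, on which Syk docks, are shown with the tyrosine and leucine codons of the pattern in capitals.
Fcer1g ITAM: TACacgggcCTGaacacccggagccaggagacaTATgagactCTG
Tyrobp ITAM: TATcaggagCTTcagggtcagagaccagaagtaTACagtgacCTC

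*Fcer1g* measured 270.1, 270.4 and 271.9 RPKM in sh-NC and 370.2, 366.7 and 399.3 RPKM in sh-*Etv5*. The control libraries were nearly equal and all lay below the knockdown libraries. The mean rose by 39.8%, from 271 ± 0.979 to 379 ± 17.9 RPKM (SD, n = 3 per group), with a log2 fold change of 0.48 ± 0.0370 SE (limma, adjusted p = 4.30e-07).

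*Tyrobp* moved the other way. It measured 367, 371 and 345 RPKM in sh-NC and 263, 237 and 262 RPKM in sh-*Etv5*. The highest sh-*Etv5* library was well below the lowest control. From 361 ± 14.1 RPKM the mean fell by 29.7% to 254 ± 14.6 RPKM (SD, n = 3 per group), with a log2 fold change of −0.51 ± 0.0457 SE (limma, adjusted p = 1.61e-06).

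Together the adaptors summed to 632 ± 13.2 RPKM in sh-NC and 633 ± 28.7 RPKM in sh-*Etv5* (SD, n = 3 per group), and the groups overlapped. *Fcer1g* supplied 42.9 ± 1.06% of this sum in sh-NC and 59.9 ± 1.21% in sh-*Etv5*. The ratio of *Fcer1g* to *Tyrobp* was 0.736, 0.729 and 0.789 in sh-NC and 1.41, 1.55 and 1.53 in sh-*Etv5*. DAP12 transcripts thus led in the controls and gamma chain transcripts led in the knockdown (log2 difference 0.99, exact permutation p = 0.1).

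*Syk*, the kinase that both adaptors recruit, lies at chr13:52583173-52648792 on the plus strand, with 14 exons. It measured 15.3, 14.99 and 14.4 RPKM in sh-NC and 28.0, 30.3 and 28.4 RPKM in sh-*Etv5*. All knockdown libraries were above all controls. The mean rose 1.94-fold, from 14.9 ± 0.465 to 28.9 ± 1.22 RPKM (SD, n = 3 per group), with a log2 fold change of 0.91 ± 0.0462 SE (limma, adjusted p = 1.39e-08).

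The Trem receptors split. *Trem2*, which binds lipids and apolipoproteins and is a marker of lipid-handling macrophages and microglia, lies at chr17:48346401-48354147 on the plus strand, with 5 exons. It measured 174, 166 and 166 RPKM in sh-NC and 52.2, 49.3 and 47.4 RPKM in sh-*Etv5*. Every knockdown library was far below every control library. From 169 ± 4.71 RPKM the mean fell by 70.6% to 49.6 ± 2.40 RPKM (SD, n = 3 per group), with a log2 fold change of −1.75 ± 0.0412 SE (95% confidence interval −1.84 to −1.66, limma, adjusted p = 3.34e-11). Ranked by the fall in log2 value, *Trem2* was 49th of the 10738 genes tested.

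*Trem1*, an amplifier of inflammatory responses in myeloid cells, lies at the other side of the same gene cluster, at chr17:48232768-48246924 on the plus strand, with 4 exons. It measured 1.10, 1.12 and 0.842 RPKM in sh-NC and 3.06, 2.62 and 2.64 RPKM in sh-*Etv5*. The level was low in both groups, and the groups did not overlap. The mean rose 2.72-fold, from 1.02 ± 0.155 to 2.77 ± 0.246 RPKM (SD, n = 3 per group), with a log2 fold change of 0.90 ± 0.0872 SE (limma, adjusted p = 2.93e-06). The ratio of *Trem1* to *Trem2* went from 0.00605 ± 0.000881 to 0.0558 ± 0.00273 (log2 difference 3.22, exact permutation p = 0.1), and *Trem2* remained the more abundant transcript in every library.

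**Figure D3:**
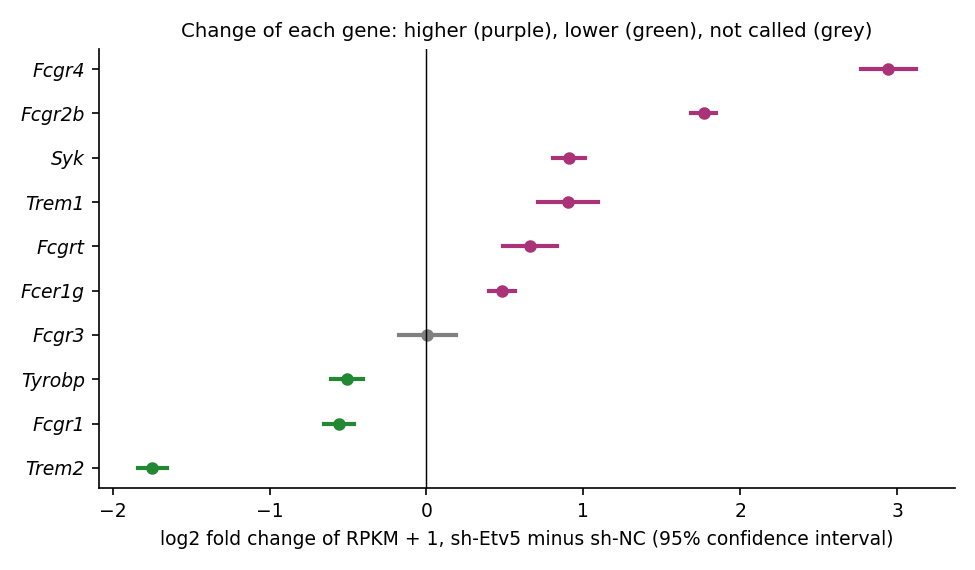
Log2 fold change of RPKM + 1, sh-Etv5 minus sh-NC, with its 95% confidence interval from limma for each of the 10 genes. Fcgr4 at 2.94 and Fcgr2b at 1.77 are highest, Trem2 at −1.75 is lowest, and the interval of Fcgr3, −0.18 to 0.19, holds 0.

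**Figure D4:**
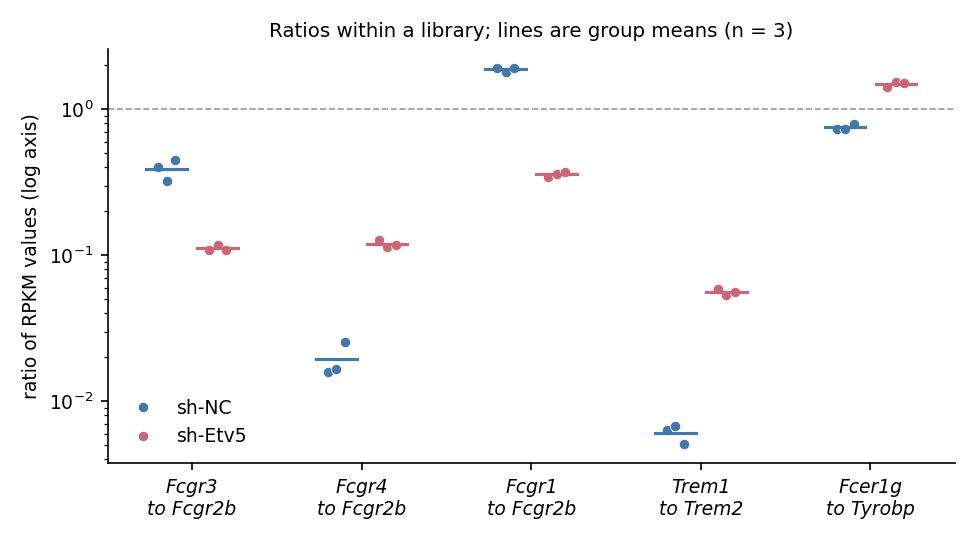
Ratios of RPKM within each library on a log axis, with lines at the group means (n = 3 per group) and a dashed line at 1. The Fcgr1 to Fcgr2b ratio and the Fcer1g to Tyrobp ratio lie on opposite sides of 1 in the groups, while the other 3 ratios stay below 1.

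The remaining genes of the *Trem* cluster on chromosome 17, which spans 134 kb from *Trem1* to *Treml1*, were looked at after the values of *Trem1* and *Trem2* had been seen. *Trem3*, the neighbor of *Trem1*, rose from 7.13 ± 0.830 to 18.6 ± 1.91 RPKM (log2 fold change 1.27, limma, adjusted p = 1.53e-07). *Treml2*, nearer to *Trem2*, fell from 2.46 ± 0.285 to 1.65 ± 0.150 RPKM (log2 fold change −0.39, limma, adjusted p = 0.00178, SD, n = 3 per group). *Treml4* and *Treml1* did not pass the filter. *Treml4*, between *Trem3* and *Treml2*, measured 0.182 ± 0.0195 and 0.869 ± 0.0858 RPKM, and *Treml1*, beyond *Trem2*, measured 0.686 ± 0.0773 and 0.256 ± 0.0790 RPKM. The groups did not overlap for either, which held for 76.4% of all genes tested. That share was not computed for genes below the filter.

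Etv5 belongs to the ETS family, whose members bind DNA at a GGAA core. Promoter windows of 300 bases (250 before to 50 after a start site, RefSeq, GRCm38.p6) were found for 9 of the 10 genes. They were searched on both strands for GGAA and for 2 longer forms that contain it, CCGGAA and GAGGAA, and also for TGANTCA, TTCNNNGAA and TATAAA. A core form of the NF-κB motif was searched too. The windows of the genes with the largest changes, *Fcgr2b*, *Fcgr4* and *Trem2*, are shown with that of *Fcgr3*, which was not called, and with each GGAA, or TTCC where the core is on the other strand, in capitals. They lie at chr1:170976022-170976321 (minus strand) for *Fcgr2b*, chr1:171018676-171018975 (plus) for *Fcgr4*, chr17:48346151-48346450 (plus) for *Trem2*, and chr1:171059354-171059653 (minus) for the first of 2 windows of *Fcgr3*.
Fcgr2b promoter: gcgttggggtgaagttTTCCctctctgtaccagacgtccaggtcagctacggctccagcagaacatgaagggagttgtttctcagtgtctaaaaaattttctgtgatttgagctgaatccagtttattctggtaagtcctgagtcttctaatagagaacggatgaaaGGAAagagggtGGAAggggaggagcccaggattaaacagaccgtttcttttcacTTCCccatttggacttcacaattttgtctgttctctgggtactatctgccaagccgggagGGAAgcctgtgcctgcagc
Fcgr4 promoter: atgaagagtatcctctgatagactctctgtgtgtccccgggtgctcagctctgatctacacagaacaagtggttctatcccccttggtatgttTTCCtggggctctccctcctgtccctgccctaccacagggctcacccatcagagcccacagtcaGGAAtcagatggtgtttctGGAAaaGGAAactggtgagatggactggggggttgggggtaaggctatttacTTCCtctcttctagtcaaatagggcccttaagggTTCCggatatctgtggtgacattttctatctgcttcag
Trem2 promoter: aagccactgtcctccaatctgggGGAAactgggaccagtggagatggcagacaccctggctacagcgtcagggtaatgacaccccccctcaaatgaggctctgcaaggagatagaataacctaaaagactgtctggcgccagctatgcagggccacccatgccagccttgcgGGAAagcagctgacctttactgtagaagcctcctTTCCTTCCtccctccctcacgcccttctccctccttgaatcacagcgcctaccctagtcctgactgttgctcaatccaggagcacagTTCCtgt
Fcgr3 promoter: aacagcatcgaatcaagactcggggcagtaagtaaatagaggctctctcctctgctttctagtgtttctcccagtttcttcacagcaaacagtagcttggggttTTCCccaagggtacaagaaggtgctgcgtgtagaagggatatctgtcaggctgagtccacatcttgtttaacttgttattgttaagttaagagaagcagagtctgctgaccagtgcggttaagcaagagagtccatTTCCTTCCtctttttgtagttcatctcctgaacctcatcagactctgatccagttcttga

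The GGAA core occurred 5 times in the *Fcgr2b* window, 6 times in that of *Fcgr4*, 5 times in that of *Trem2* and 3 times in that of *Fcgr3*. It was found in at least 1 window of each of the 9 genes, and in 96% of all 32851 promoter windows, so that its presence separates no gene from the rest. CCGGAA was found for 2 of the 9 genes, *Fcgr4* and *Fcer1g*, and in 14.9% of all windows. GAGGAA was found for 6 of the 9 genes (*Fcgr1*, *Fcgr3*, *Fcgr4*, *Syk*, *Trem1* and *Trem2*) and in 28.3% of all windows. These 6 include genes that rose, genes that fell and the gene that was not called. A gene was counted if any of its windows matched, whereas the shares are of single windows. For *Syk*, GGAA and GAGGAA were found only in the second of its 2 windows. TGANTCA was found for *Trem2* (7.81% of all windows), TTCNNNGAA for *Fcgr1* and *Trem1* (8.30% of all windows), and TATAAA for none (13.6% of all windows). The NF-κB form was found for none of the 9 genes (1.47% of all windows). A match describes the letters in the window and not binding by a factor.

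Downstream of the receptors, the list of ITAM signaling genes held Src-family kinases, adaptors and enzymes that act with Syk. All 22 were tested, 9 were higher, 10 were lower and 3 (*Lat2*, *Vav3* and *Prkcd*) were not called. The share called was 86.4%, against 74.3% of all genes (33.3% higher and 41% lower), and the median log2 fold change was −0.06 beside −0.05 over all genes tested. The 9 higher genes include *Pik3ap1* (log2 fold change 1.45) and the Src-family kinase *Lyn* (log2 fold change 0.90), both named after their values were seen. The largest falls were in *Fgr* and *Blnk*. The Src-family kinase *Fgr* measured 6.66, 5.51 and 6.09 RPKM in sh-NC and 0.453, 0.687 and 0.482 RPKM in sh-*Etv5* (log2 fold change −2.20, limma, adjusted p = 2.29e-09). All knockdown libraries were below 1 RPKM and all controls above 5 RPKM, so *Fgr* passed the filter only through its sh-NC libraries. *Blnk*, an adaptor that Syk phosphorylates, fell from 22.3 ± 0.635 to 7.05 ± 0.968 RPKM (SD, n = 3 per group, log2 fold change −1.54, limma, adjusted p = 1.08e-08).

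Among 11 other Fc receptors, only *Fcrl1* and *Trim21* were tested, since the other 9 measured at most 0.320 RPKM in any library. *Fcrl1*, an Fc receptor-like gene known from B cells, rose from 5.19 ± 0.446 to 9.30 ± 0.648 RPKM (log2 fold change 0.74, limma, adjusted p = 2.82e-06). *Trim21*, a cytosolic receptor for antibodies that enter the cell, fell from 5.25 ± 0.242 to 3.46 ± 0.394 RPKM (log2 fold change −0.49, limma, adjusted p = 0.000129, SD, n = 3 per group). The mast cell and B cell receptors *Fcer1a* and *Fcer2a* were among the 9 that were not tested.

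Of 21 other adaptors and receptors grouped with them, 11 were tested, with 6 higher, 3 lower and 2 (*Hcst* and *Clec5a*) not called. A call was thus reached by 81.8% of those tested, against 74.3% of all genes. The median log2 fold change of those tested was 1.10, but *Pilrb1* and *Clec4n* passed the filter only through their sh-*Etv5* libraries, and without them the median of the other 9 was 0.11. *Cd300ld*, a CD300-family receptor, rose from 6.36 ± 0.725 to 40.9 ± 2.26 RPKM (log2 fold change 2.51, limma, adjusted p = 1.24e-10). *Pilrb1*, a receptor that pairs with DAP12, had the value 0 in 2 libraries with sh-NC and 0.0200 RPKM in the other, and measured 3.48, 5.32 and 5.10 RPKM in sh-*Etv5* (log2 fold change 2.47, limma, adjusted p = 1.08e-08). That value rests on the pseudocount and was 5.45 with 0.1 and 8.31 with 0.01 in place of 1. *Clec4n* (Dectin-2), a fungal receptor that pairs with the gamma chain, rose from 0.365 ± 0.104 to 3.0 ± 0.232 RPKM (log2 fold change 1.55, limma, adjusted p = 3.63e-08). Its relatives *Clec4d* and *Clec4e*, which also use the gamma chain and were named after their values were seen, rose from 27.8 to 60.9 RPKM and from 22.1 to 57.1 RPKM (log2 fold change 1.10 and 1.33). The 3 lower genes of this list were *Cd247*, *Cd300lb* and *Treml2* (log2 fold change −0.63, −0.46 and −0.39). Of the 50-base stretches of *Pilrb1*, 32.2% occur in another gene, mainly *Pilrb2*. Among them, 140 occur in *Pilra*, which also rose and is given with the inhibitory list below. The part of shared reads in the rise of either gene was not tested.

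The inhibitory list held receptors grouped as inhibitory and the phosphatases and docking proteins that act with such receptors. Coding sequences of the genes in this list were not searched for an ITIM. Of 19 genes, 15 were tested, with 4 higher, 7 lower and 4 not called. The share called, 73.3%, was near that of all genes (74.3%), and the median log2 fold change was −0.16 beside −0.05. *Pilra* measured 0.910, 0.492 and 0.432 RPKM in sh-NC and 18.2, 18.1 and 17.3 RPKM in sh-*Etv5*, and passed the filter only through the latter (log2 fold change 3.56, limma, adjusted p = 1.29e-10). *Lilrb4a* rose from 163 ± 3.08 to 359 ± 13.8 RPKM (log2 fold change 1.13), and the sialic acid-binding receptor *Cd33* fell from 14.6 ± 0.295 to 3.90 ± 0.400 RPKM (log2 fold change −1.67, SD, n = 3 per group). Much of *Lilrb4a* (47.2%) and of *Pilra* (20.8%) is sequence found in other genes. For *Lilrb4a* the main one is *Gm49339*, whose exons overlap it on the same strand. For *Pilra* the main one is *Zcwpw1* (421 stretches), whose exons overlap it on the opposite strand, and *Pilrb1* shares fewer (140 stretches). The part of shared reads in these rises was not tested. The receptors named here thus include genes that rose, as *Fcgr2b* did, and a gene that fell. The SHIP1 gene *Inpp5d*, named after its value was seen because FcγRIIB acts through it, fell from 43.7 to 30.8 RPKM (log2 fold change −0.49, limma, adjusted p = 4.32e-07), while *Fcgr2b* rose.

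The list for Fc receptor phagocytosis held actin regulators and lipid kinases that act in the phagocytic cup. Of 24 genes, 21 were tested, with 5 higher, 13 lower and 3 not called. The share called was 85.7%, against 74.3% of all genes, and the median log2 fold change was −0.16 beside −0.05. Most changes were small. The phosphatidylinositol phosphate kinases moved apart, with *Pip5k1c* falling from 35.1 ± 0.535 to 18.3 ± 1.90 RPKM (log2 fold change −0.91) and *Pip5k1a* rising from 14.9 ± 0.682 to 24.9 ± 0.760 RPKM (log2 fold change 0.70). The GTPase *Rac1* fell from 123 ± 1.42 to 85.0 ± 0.0461 RPKM (SD, n = 3 per group, log2 fold change −0.52), and 50.3% of its 50-base stretches also occur in *Daglb*, which overlaps it on the opposite strand.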

How the data were processed

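Polyadenylated RNA of 3 sh-NC and 3 sh-*Etv5* libraries of Raw264.7 cells was measured. The authors deposited RPKM values, 1 per gene symbol and library, on genome build mm10 per the submitters' notes. The aligner, the annotation and the use of strand are not given in the sources used here. Whole reads could not be recovered from the values, so depth is unknown and no counting error is given. Reads shared by similar or overlapping genes can enter both, and RPKM is relative to all other transcripts of a library.

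The filter asked for 1 RPKM or more in 3 or more libraries and left 10738 genes. All of these were fitted on log2(RPKM + 1) using limma 3.58.1 under R 4.3.3 (trended eBayes, two-sided, no covariate, called at a Benjamini-Hochberg adjusted p under 0.05). The step was also run on simulated data in which only a small share of genes was changed. Most genes were called in the real libraries, so that run does not give the error rate here. Ratios were compared by exact permutation with SciPy 1.17.1. Other steps used Python 3.11.15, pandas 2.3.3 and NumPy 2.4.6. Of the symbols, 24255 (97.9%) were matched to GENCODE M21 (GRCm38), and promoters were taken from RefSeq (GRCm38.p6).

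Groups came from the labels. The 10 genes and the lists were chosen with earlier results of these data known. Named were the 10 genes, *Etv5* and the 3 called genes of each list with the largest absolute change (both tested genes for the other Fc receptors). Of these, 1 list gene is not reported here. Exceptions are stated where they occur. Alternatives were other pseudocounts, filters, scalings and thresholds, eBayes without trend, a replicate block and each library left out.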

Additional observations from a re-analysis of the deposited data

How the results depend on the processing

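The 10 genes kept their call in all 145 alternative fits that gave a value. In 209 fits the same held for *Etv5* and the list genes named for the largest absolute change. Every called gene also kept its direction, while the log2 fold change of *Fcgr3*, which was not called, changed sign between fits. On the log2 scale *Fgr* reached −3.49, *Clec4n* 3.05 and *Pilra* 4.93 with a pseudocount of 0.01. No value could be had for *Fcgr4* when any sh-*Etv5* library was left out, nor for *Fcgrt* and *Trem1* at a mean RPKM of at least 5, because the filter removed them. The range was 1.71 to 1.82 for *Fcgr2b*, 2.78 to 4.44 for *Fcgr4*, −1.81 to −1.69 for *Trem2*, 0.76 to 1.44 for *Trem1* and −0.09 to 0.09 for *Fcgr3*, whose adjusted p ranged from 0.241 to 1 (limma). With a log2 fold change above 0.5 required as well, 1711 genes were higher and 1611 lower, in place of 3575 and 4399, because that threshold is stricter, and 5 of the 10 genes were higher in place of 6, since *Fcer1g* (0.48) was below it, as were *Trim21* and *Inpp5d* (both −0.49). With a pseudocount of 1 RPKM the log2 difference was 1.18 for *Fcgr4* to *Fcgr2b* (2.66 without), −2.32 for *Fcgr1* to *Fcgr2b* (−2.38 without) and 2.65 for *Trem1* to *Trem2* (3.22 without), since it adds most to low values. Rescaling to the same sum moved the median log2 fold change of all genes from −0.05 to −0.10. The replicate numbers did not pair the libraries (r of the deviations of same-numbered libraries 0.07, −0.07 and −0.04), and with the replicate block 3539 genes were higher and 4361 lower, and the 10 genes kept 6 higher and 3 lower calls. Depth is unknown, so the low values of *Fcgr4*, *Fcgrt* and *Trem1* in sh-NC are the least certain.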
